A study of Mus musculus with 2 samples.

Results

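The 37 genes described here encode the enzymes that carry pyruvate, ketone bodies and branched-chain amino acids into the citrate cycle, the enzymes of the cycle itself and those of the malate-aspartate shuttle. They were taken as a list of gene symbols and matched to the Ensembl mouse gene IDs of the deposited tables. All 37 had a row, out of 27443 gene IDs in all. In the study, single cardiomyocytes of C57BL/6 wild-type adults were sorted on a large-particle cytometer and profiled by SCRB-seq, a plate method that counts polyadenylated RNA at its 3′ end with unique molecular identifiers (UMIs). Enzymes were perfused through the heart for 9 minutes, and freed cells passed a 100 µm filter. The live and fixed study held ventricular cells sorted after fixation (800 µL of ethanol added to 200 µL of cells in buffer), called fixed, and ventricular cells sorted unfixed, called live. The multichamber study held unfixed cells from mice aged about 3 months, labelled by chamber as LA or RA (the atria) and LV or RV (the ventricles), in 4 libraries called A to D. All groups share the strain, the wild-type genotype and the digestion. No animal, and no number of animals, is named for any cell.

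Cells were kept from 1000 gene UMIs and 500 genes upward, and their UMIs were summed into 1 pool per label. The pools held 35 fixed and 31 live cells with 2424636 and 1483859 UMIs of nuclear-encoded genes, 56 LA and 44 RA cells with 933747 and 470095, and 91 LV and 90 RV cells with 2566040 and 2988611. Levels are counts scaled to 1000000 UMIs of nuclear-encoded genes (CPM). Each UMI is 1 tag of 1 molecule, so levels of different genes were compared without dividing by transcript length. With 1 pool per label and cells that are not replicates, no difference was tested. Intervals, given in brackets, are exact 95% intervals of the counts and cover counting error only. A member with at least 30 UMIs over both sides of a comparison is called measured, and one at least 1.5-fold apart in CPM + 5 is called higher or lower. Shares of all genes given beside such counts follow the same rules and were not matched to the members in level. Most members were more abundant than most of those genes, and counting error carries low genes past the fold more easily. The shares were counted under these rules only. Counts of members under other settings, such as with a library left out, therefore have no share of all genes beside them.

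The 332 labelled cells of the multichamber study used 84 distinct cell barcodes, so barcodes recur between its libraries. The 9 myocyte markers (Myl2, Myl3, Myh6, Tnni3, Tnnt2, Actc1, Ttn, Ryr2 and Pln), most of which atrial myocytes also express, were found in all 6 pools, at 3.48 to 8.70% of nuclear-encoded UMIs together. Myl2, the ventricular light chain gene, stood at 9322 CPM in LA, 11721 CPM in RA, 10497 CPM in LV and 10335 CPM in RV. The 5 atrial myocyte markers took 0.0150% in the LA pool and 0.00532% in the RA pool, against 0.00343% in LV and 0.00418% in RV. The atrial peptide gene Nppa had 0 UMIs in both atrial-labelled pools, where a count of 0 allows up to 3.21 CPM (LA) and 6.38 CPM (RA). The atrial light chain gene Myl7 stood at 86.7 CPM in LA and at 0 in RA. The atrial labels are therefore used below as labels and not as a cell type. Markers of 7 other cell types together took 2.94% of the LA pool and 5.05% of the RA pool, 1.30% of LV and 1.40% of RV, and 0.00965% of fixed and 0.0662% of live cells. Most of this in the chamber pools was haemoglobin and other red cell RNA. The RA pool also rested on few cells: a single cell of library C held 27.9% of its nuclear-encoded UMIs, and 5 cells held 64.9%.

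Pyruvate enters mitochondria through the mitochondrial pyruvate carrier and is oxidised to acetyl-CoA by the pyruvate dehydrogenase complex, which kinases switch off and phosphatases switch on. The citrate cycle oxidises acetyl-CoA from pyruvate, fatty acids, ketone bodies and the branched-chain amino acids leucine, isoleucine and valine. The malate-aspartate shuttle carries reducing equivalents of the cytosol into mitochondria. The working heart draws most of its energy from this oxidation, and is known for its high mitochondrial content and for burning ketone bodies made by the liver.

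Promoter sequence was searched for the letters of factors known to act on genes of oxidative metabolism, on both strands of RefSeq windows of 300 bases (250 before to 50 after each start, GRCm38.p6). The letters were chosen after the levels had been seen. Windows were found for 33 of the 37 members, 44 windows in all, with no entry matched for Pdp1, Idh3a, Dbt and Acat1. The estrogen-related receptor motif TCAAGGTCA was in 0 of the 44 windows and in 0.423% of all 32851 windows. Its shorter core AAGGTCA, which lies inside the longer motif, was in 2 member windows (4.55%, against 4.72% of all windows). The palindromic motif of nuclear respiratory factor 1 was in 0 member windows in its strict form (0.971% of all windows) and in 3 with its middle base left free (6.82%, against 4.60%). The 5 matches are printed with up to 10 bases on each side, on the strand of the gene, with the matched letters in capitals. In Ogdh and Dld the match reads on the opposite strand. They are shown because Ogdh and Got1 carry the receptor core, and Hibadh, Dld and Sucla2 the respiratory factor core.
Ogdh, chr11:6292155-6292181, + strand: gacacggcgcTGACCTTggtgcctgcg
Got1, chr19:43524834-43524855, − strand: cccagAAGGTCAggaggttgtc
Hibadh, chr6:52640347-52640376, − strand: agcaaggagaGCGCGTGCGCgagctgtcct
Dld, chr12:31351422-31351442, − strand: cgtatatgttGCGCAGGCGCa
Sucla2, chr14:73552759-73552788, + strand: ctgcgtctctGCGCCTGCGCggtgcccagg

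Of the general promoter elements, CCAAT was in 27 of the 44 member windows (61.4%, against 37.4% of all windows), in 20 members. The GC box GGGCGG was in 25 windows (56.8%, against 35.7%), in 21 members. These are counts of letters in a window and not sites of binding. All windows, here and for the motifs above, include those of genes not detected in these cells and were not matched to the members in level. Whether the shares are particular to the members was not tested. The 5 genes with a printed match did not share a level: over the 4 chamber pools Ogdh averaged 1247 CPM, Got1 460 CPM, Sucla2 379 CPM, Hibadh 207 CPM and Dld 187 CPM.

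The members were among the abundant transcripts of these cells. Over the 4 chamber pools, 26 of the 37 averaged over 100 CPM, against 5.60% of the 24481 genes detected there, and 5 averaged over 1000 CPM. Together they held 1.29% of nuclear-encoded UMIs in the LA pool and 1.60% in the RA pool, 1.41% in LV and 1.40% in RV, and 0.742% in fixed and 0.688% in live cells. Cell by cell, the median share was 1.38% in LA and 1.18% in RA, 1.46% in LV (interquartile range 1.29 to 1.69%) and 1.43% in RV (1.25 to 1.61%), and 0.748% in fixed and 0.771% in live cells. Annotated pseudogenes and ribosomal RNA genes took 28.6% of the total in fixed and 33.8% in live cells, against 7.69 to 10.6% in the 4 chambers. Outside these, the members held 1.04% in both fixed and live cells and 1.44 to 1.73% in the chambers. The studies were prepared apart, and no biology is read from the difference between them.

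Of the members' UMIs in the 4 chamber pools, the 12 citrate cycle genes held 51.2%, the 3 malate-aspartate genes 15.2%, the 3 ketone genes 10.7%, the 5 subunit genes of the pyruvate dehydrogenase complex 8.85%, the 2 carrier genes 6.31%, the 8 branched-chain genes 4.84% and the 3 regulators 2.77%. Pcx, which carboxylates pyruvate to oxaloacetate to refill the cycle, held 0.188% and averaged 28.5 CPM. Most roles held both abundant and scarce members.

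Of the carrier, Mpc2 stood at 783 CPM in LA and 806 CPM in RA, at 815 CPM in both LV and RV, and at 397 CPM in fixed cells against 365 CPM in live cells. Mpc1, its obligate partner subunit (chr17:8282904-8297661, + strand, GRCm38), stood at 65.3 CPM in LA and 68.1 CPM in RA, 52.6 CPM in LV and 93.7 CPM in RV, and 99.4 CPM in fixed against 99.7 CPM in live cells. The partners thus had unlike levels in all 6 pools. Of the last 400 bases of Mpc1, 153 lie over exons of 4930506C21Rik on the other strand. The sources used here do not say whether counting used strand, so reads of both genes cannot be told apart there.

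Of the pyruvate dehydrogenase complex, Pdhb and Pdha1, the subunits of the decarboxylase, averaged 405 and 334 CPM over the chambers. Dlat, the acetyltransferase of the core, averaged 236 CPM. Dld, the dehydrogenase that this complex shares with those for alpha-ketoglutarate and branched-chain keto acids, averaged 187 CPM, and Pdhx, which holds Dld to the core, 75.7 CPM. Of the last 400 bases of Pdha1, 176 lie over exons of Map3k15 on the other strand. Of the regulators, the kinase gene Pdk2 averaged 275 CPM, the kinase gene Pdk1 109 CPM and the phosphatase gene Pdp1 20.9 CPM.

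Idh2, the mitochondrial NADP-dependent isocitrate dehydrogenase, was the most abundant member by its chamber mean and had a UMI in 342 of all 347 kept cells. It stood at 1341 CPM in LA and 1444 CPM in RA, 1475 CPM in LV and 1402 CPM in RV, and 1005 CPM in fixed against 774 CPM in live cells. Mdh1 (cytosolic malate dehydrogenase) averaged 1339 CPM over the chambers, Ogdh (the first enzyme of the alpha-ketoglutarate dehydrogenase complex) 1247 CPM, Mdh2 (mitochondrial malate dehydrogenase) 1100 CPM and Oxct1 (the transferase that activates ketone bodies) 1051 CPM. Neighbours in this order overlapped in their ranges over the 4 chambers, so that their order does not hold beyond that spread. Citrate synthase (Cs) averaged 653 CPM.

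The subunits of the NAD-dependent isocitrate dehydrogenase followed, with Idh3b at 628 CPM, Idh3g at 413 CPM and the catalytic Idh3a at 299 CPM (206 to 363 CPM over the chambers). Dlst, the transferase of the complex with Ogdh, averaged 280 CPM, and fumarase (Fh1) 287 CPM. Of succinate-CoA ligase, the common alpha subunit Suclg1 averaged 440 CPM, the ADP-forming beta subunit Sucla2 379 CPM and the GDP-forming beta subunit Suclg2 135 CPM. The aspartate aminotransferases Got1 (cytosolic) and Got2 (mitochondrial) averaged 460 and 413 CPM.

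Most branched-chain genes were lower. Hibadh and Hibch of valine breakdown averaged 207 and 68.2 CPM and Ivd of leucine breakdown 194 CPM. The subunits of methylcrotonyl-CoA carboxylase, also of leucine breakdown, averaged 67.4 CPM for Mccc1 and 36.6 CPM for Mccc2. Of the branched-chain keto acid dehydrogenase, Bckdhb averaged 55.6 CPM and the core subunit Dbt 48.1 CPM. Bckdha, the partner subunit of Bckdhb, had 41 UMIs in 18 of the 347 kept cells. It stood between 2.47 and 5.69 CPM in the pools with a UMI and had 0 UMIs in RA, and all 400 last bases of it lie over B3gnt8 on the other strand. Of the other ketone genes, Acat1, the thiolase of ketone use and isoleucine breakdown, averaged 424 CPM, and Bdh1, which oxidises beta-hydroxybutyrate, 43.1 CPM.

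**Figure D1:**
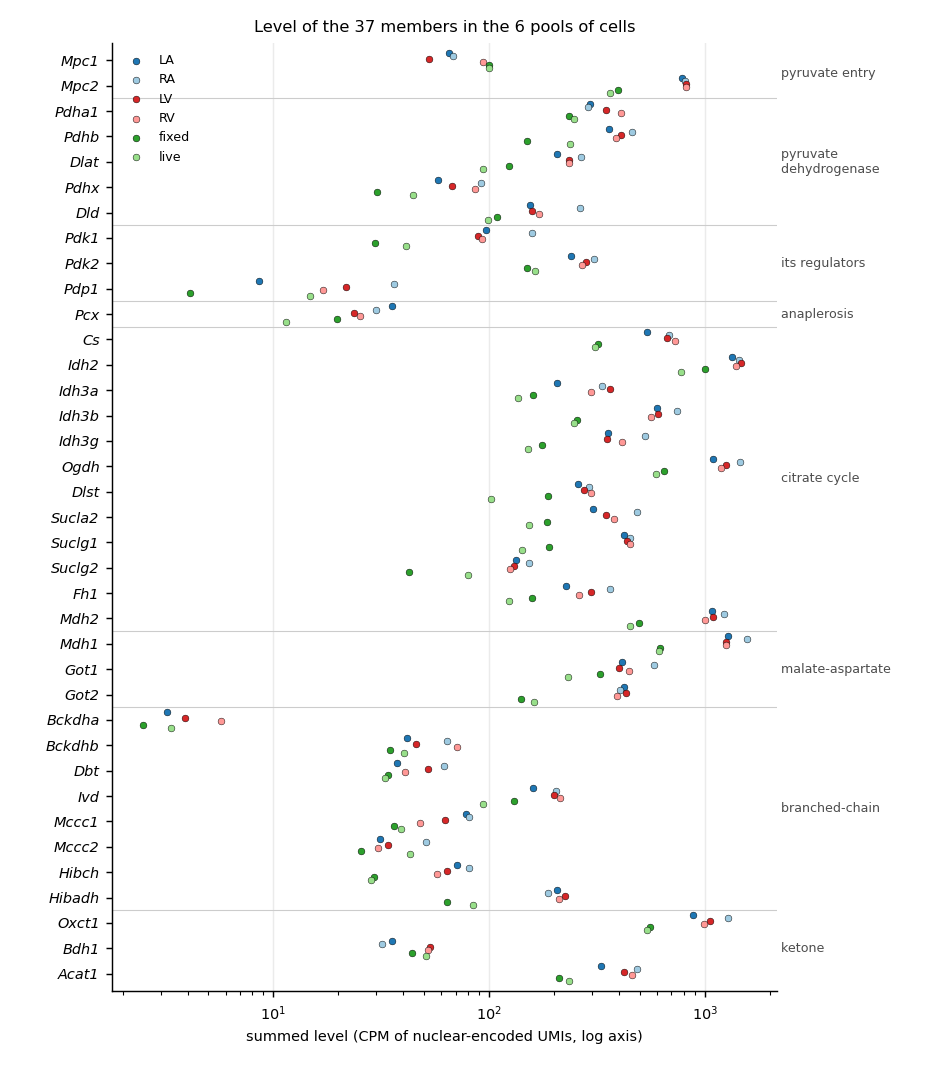
Level of each member (horizontal log axis, CPM of nuclear-encoded UMIs) in the pools LA, RA, LV, RV, fixed and live, 1 point per pool, grouped by role. Idh2, Mdh1, Ogdh, Mdh2 and Oxct1 lie at the right end and Bckdha at the left end (its RA value is 0 and is not drawn), and most members lie further left in the fixed and live pools, which are of another study.

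Ratios of partner genes within a pool do not depend on the total. Per UMI of Mpc2, Mpc1 had 0.0834 UMIs in LA (0.0632 to 0.108) and 0.0844 in RA (0.0569 to 0.121). The ratio was 0.0645 in LV (0.0538 to 0.0768) and 0.115 in RV (0.101 to 0.130), and 0.251 in fixed cells (0.217 to 0.289) against 0.274 in live cells (0.227 to 0.329). Bckdhb had 11.8 UMIs per UMI of Bckdha in LV (6.20 to 25.2) and 12.5 in RV (7.61 to 21.8). These ratios rest on 10 UMIs of Bckdha in LV and 17 in RV, 15 of the latter in library C, where the ratio was 5.07. Mdh2 per Mdh1 lay between 0.729 and 0.870 in all 6 pools. In all, 18 pairs were looked at. Idh2 outnumbered Idh3a in every pool, from 4.07 to 1 in LV (3.78 to 4.37) up to 6.52 to 1 in LA (5.60 to 7.63). Bdh1 had between 0.0250 and 0.0948 UMIs per UMI of Oxct1.

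**Figure D2:**
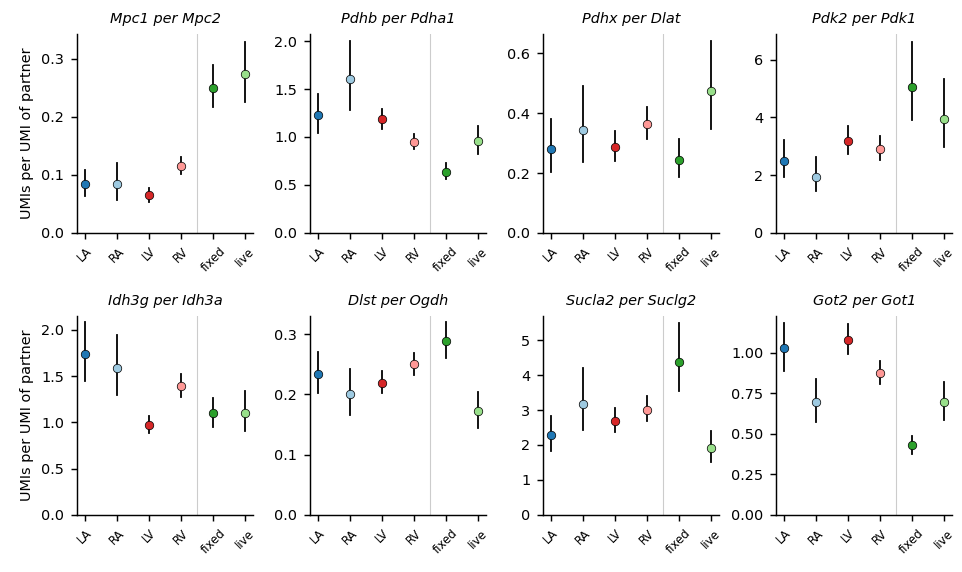
UMIs of one gene per UMI of its partner within each pool, for 8 pairs, with exact 95% intervals (counting error only); the vertical line parts the 2 studies. Idh3g per Idh3a and Mpc1 per Mpc2 were lower in LV than in RV, and Sucla2 per Suclg2 was 4.39 in fixed and 1.91 in live cells.

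In the ventricles the members varied less from cell to cell than most genes at or above 100 CPM. Among cells with at least 20000 UMIs, the variation beyond counting error (a coefficient of variation) had a median of 51.4% over 25 members in 76 LV cells, against 65.0% over all 1397 such genes. It was 48.5% over 25 members in 80 RV cells, against 61.4% over 1334 genes. In LV 24 of the 25 members, and in RV 22 of the 25, lay below the median of all genes. In the other study 17 of 23 members did so in fixed cells (median 48.5%, all genes 51.6%) and 15 of 21 in live cells (36.5%, all genes 41.5%). Levels were not matched beyond the minimum. Oxct1, Mdh1 and Ogdh varied least in LV, at 36.8, 37.4 and 38.0%, and Suclg2 most, at 92.3%. In RV, Idh2 (33.1%) and Ogdh (34.8%) varied least and Fh1 (68.7%) most.

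Cells with a larger share of RNA of the 9 myocyte markers had a larger share of member RNA. Spearman's rho between both shares was 0.79 over 56 LA cells and 0.83 over 44 RA cells, 0.55 over 91 LV and 0.44 over 90 RV cells, and 0.79 over 35 fixed and 0.42 over 31 live cells. Both shares use the same cell total. Between the member share and the red cell share rho was −0.20 in LA and −0.68 in RA, and red cell RNA took a median of 1.81% of nuclear-encoded UMIs per LA cell and 11.3% per RA cell. Where RNA from other cell types was at most 2%, the median member share was 1.48% in 30 LA cells and 1.58% in 9 RA cells. With RNA encoded by mitochondrial DNA, rho was −0.31 in LV (−0.57 to −0.04 by library) and −0.51 in RV (−0.56 to −0.30 by library). It was −0.36 in live cells, but 0.19 in LA, 0.20 in RA and 0.07 in fixed cells, so the pools did not share a direction.

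The comparison of LV with RV asks whether myocytes of the ventricles, which pump against unlike pressures, differ in these genes. As a set the members lay close to equal. The median log2 ratio of the 36 measured members was 0.02 (median interval limits −0.16 to 0.16), against 0.03 over all 10812 genes measured. No member was at least 1.5-fold higher in LV (11.4% of all genes were), and 1, Mpc1, was at least 1.5-fold lower (7.18% of all genes), where 18.5% of all genes were past the fold in either direction. Levels were not matched between members and all genes, here or in the comparisons below, so these shares do not show that the members were unusually stable. Without library A, 2 members passed the fold, and without library B, 3 did. By role, the summed level in LV over that in RV was 0.945 for the pyruvate dehydrogenase complex (0.901 to 0.991), 0.955 for the carrier (0.903 to 1.01), 1.03 for the citrate cycle (1.01 to 1.05), 1.00 for malate-aspartate, 1.02 for ketone and 1.02 for branched-chain genes.

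Mpc1 had 42.8, 58.4, 44.8 and 65.5 CPM in the LV cells of libraries A, B, C and D, against 87.9, 120, 53.9 and 124 CPM in the RV cells of the same libraries. It was lower in LV in all 4 libraries, and the RV values of A, B and D lay above all LV values while that of C did not. The ratio over all libraries was 0.562 (0.454 to 0.692), a log2 ratio of −0.78, and by library the log2 ratios were −0.96, −0.98, −0.24 and −0.87. Within library C the interval, −0.88 to 0.38, included 0. Per UMI of Mpc2, Mpc1 was at 0.0607, 0.0856, 0.0498 and 0.0674 in LV, against 0.0905, 0.163, 0.0613 and 0.182 in RV. As 153 of the last 400 bases of Mpc1 lie over exons of 4930506C21Rik, reads of both genes cannot be told apart there. Their part in the ratios of Mpc1 was not tested. Of all genes, 2.63% were at least 1.5-fold lower in LV and below 0 in all 4 libraries.

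Bckdhb (chr9:83925145-84124240, + strand) had 54.6, 51.7, 41.7 and 35.9 CPM in LV in libraries A to D, against 78.2, 57.1, 81.9 and 64.6 CPM in RV. Every RV value lay above every LV value. The ratio was 0.648 (0.513 to 0.816), a log2 ratio of −0.57, just short of 1.5-fold, and it passed that fold in 7 of 19 other settings. The core subunit Dbt had 1.14 UMIs per UMI of Bckdhb in LV (0.880 to 1.47) and 0.575 in RV (0.457 to 0.722), but by library the ratio was 0.676, 0.613, 1.56 and 2.09 in LV, against 0.479, 0.951, 0.539 and 0.404 in RV, so that library B went the other way.

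Subunits of the NAD-dependent isocitrate dehydrogenase lay on opposite sides. Idh3a (chr9:54586334-54604661, + strand) had 344, 342, 420 and 345 CPM in LV in libraries A to D, against 308, 305, 292 and 280 CPM in RV. Every LV value lay above every RV value, and the ratio was 1.23 (1.12 to 1.35). Idh3g (chrX:73778963-73786897, − strand) had 388, 280, 383 and 356 CPM in LV, against 484, 362, 434 and 372 CPM in RV. It was lower in LV within each library, although the values of the ventricles overlapped, with a ratio of 0.858 (0.787 to 0.936). Per UMI of Idh3a, Idh3g was at 0.974 in LV (0.888 to 1.07) and 1.39 in RV (1.28 to 1.52). By library this was 1.13, 0.820, 0.912 and 1.03 in LV, against 1.57, 1.19, 1.49 and 1.33 in RV, and no LV value reached any RV value.

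Pdha1 (chrX:160122209-160138413, − strand) had 332, 342, 355 and 359 CPM in LV in libraries A to D, against 358, 444, 407 and 419 CPM in RV. Only the RV value of library A lay among the LV values, and the ratio was 0.848 (0.777 to 0.926). The overlap with exons of Map3k15, over 176 of the last 400 bases of Pdha1, limits this ratio in the same way as for Mpc1. With Idh3a, Mccc1 (ratio 1.31, 1.04 to 1.65) and Hibch (1.11, 0.891 to 1.38) were above 0 on the log2 scale in all 4 libraries. With Mpc1, Bckdhb, Idh3g and Pdha1, Pdhx (0.784, 0.643 to 0.954) was below 0 in all 4. Thus 3 of the 36 measured members were above 0 in all libraries, beside 6.42% of all genes, and 5 were below, beside 5.11%.

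**Figure D3:**
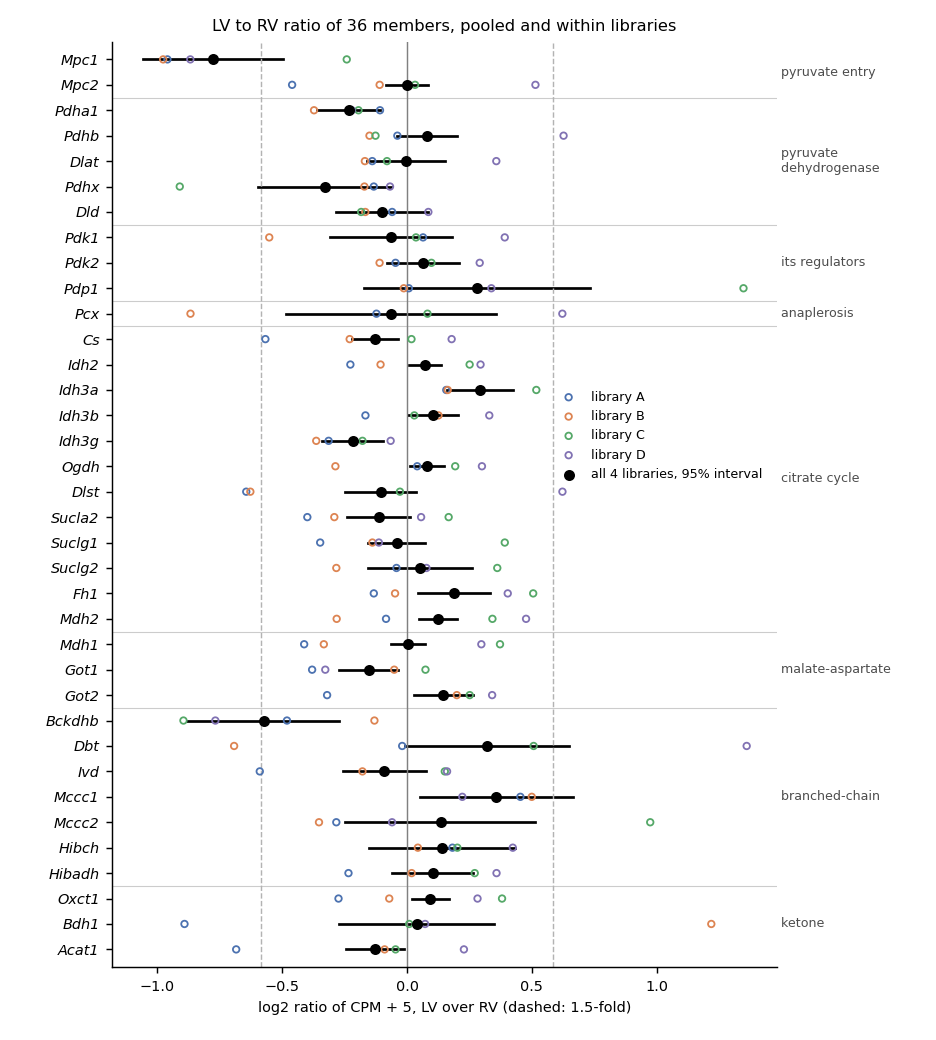
Log2 ratio of CPM + 5 of LV over RV for the 36 measured members, all 4 libraries together (filled, with exact 95% intervals of counting error) and within each library (open). Mpc1 lies beyond 1.5-fold below 0, Bckdhb at the edge of it, and for most other members libraries A and B lie to the left of C and D.

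For most members the sign went with the library. The median log2 ratio of LV over RV was −0.20 in library A and −0.16 in library B, where 6 and 7 members were above 0, and 0.12 in library C and 0.29 in library D, where 26 and 28 were. All genes measured had medians of 0.09, 0.06, −0.09 and 0.04 in the same libraries. For Cs the log2 ratios were −0.57, −0.23, 0.02 and 0.18, and for Mdh1 −0.41, −0.33, 0.37 and 0.30. The summed member share of the LV cells was 1.34, 1.28, 1.46 and 1.55% in libraries A to D, against 1.61, 1.44, 1.30 and 1.30% in the RV cells.

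Between the atrial labels, members stood lower in LA than in RA. The median log2 ratio of the 35 measured members was −0.34 (median interval limits −0.65 to −0.03), against 0.10 over 5715 genes. No member was at least 1.5-fold higher in LA (28.5% of all genes were) and 8 were at least 1.5-fold lower (15.5% of all genes), where 43.9% of all genes were past the fold in either direction. Dld had 154 CPM in LA and 264 CPM in RA (ratio 0.585, 0.457 to 0.749), Idh3a 206 and 334 CPM (0.616, 0.496 to 0.765), and Sucla2 302 and 487 CPM (0.620, 0.519 to 0.741). Fh1 had 228 CPM in LA and 364 CPM in RA (0.627, 0.510 to 0.771) and Pdk1 96.4 and 157 CPM (0.612, 0.445 to 0.844). The other lower members, Pdhx, Dbt and Mccc2, had 97 UMIs or fewer in both pools together. By role, the summed level in LA over that in RA was 0.692 for the regulators, 0.697 for ketone genes, 0.784 for the pyruvate dehydrogenase complex, 0.804 for the citrate cycle, 0.862 for branched-chain genes and 0.970 for the carrier.

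These values rested on library C. The median log2 ratio of LA over RA was 0.12 in library A, 0.03 in B, −1.27 in C and 0.81 in D. Library C held 6 LA and 17 RA cells, and 313967 of the 470095 UMIs of the RA pool. Without library C the median was 0.06, 3 members were higher and 1 was lower, and 5 of the 8 lower members (Pdhx, Dld, Pdk1, Sucla2 and Mccc2) turned in direction. Dld had 181, 171, 63.6 and 51.5 CPM in LA in libraries A to D, against 184, 167, 318 and 60.7 CPM in RA, so that only library C parted the labels by more than 1.5-fold. Red cell RNA took 2.37, 1.94, 3.38 and 8.64% of the LA cells' UMIs in libraries A to D, against 5.92, 7.62, 2.70 and 21.02% of the RA cells'. With only cells of at most 2% of RNA from other cell types the median was −0.48 and 13 members were lower. With the top cell of each gene left out 2 members were higher and 2 lower. The part of red cell RNA, of library C and of single cells in the result was not tested, and the atrial labels could not be ordered for these genes.

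Atrial-labelled cells, LA and RA together, stood close to ventricular-labelled cells. The median log2 ratio of the 37 measured members was −0.02 (median interval limits −0.17 to 0.14), against −0.06 over 11682 genes. No member was at least 1.5-fold higher (12.6% of all genes) or lower (15.1%), where 27.7% of all genes were past the fold in either direction. Without library A 2 members passed the fold, without B 3, and without C or D 1 each, and with each cell weighted equally 5 were lower. Mccc1 had 79.1 CPM in atrial-labelled and 54.7 CPM in ventricular-labelled cells (ratio 1.44, 1.15 to 1.80), and Bdh1 34.2 and 52.6 CPM (0.650, 0.469 to 0.885). On the log2 scale of CPM + 5 these were the farthest members on each side, at 0.49 and −0.55, both short of 1.5-fold. Bckdha, on 3 UMIs in LA and 0 in RA, was at −0.47 on that scale, and its plain ratio was lower than that of Bdh1. With a library left out, the log2 ratio ran from 0.18 to 0.73 for Mccc1 and from −0.98 to −0.38 for Bdh1. Library A held 43 of the 73 Mccc1 UMIs of the LA pool. Idh2, Ogdh, Oxct1, Sucla2 and Fh1 had ratios of 0.958, 0.998, 1.00, 0.999 and 0.987. By role the summed ratio was 1.08 for malate-aspartate (1.04 to 1.13), 0.932 for the pyruvate dehydrogenase complex (0.883 to 0.984) and 0.948 for ketone genes (0.903 to 0.996).

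**Figure D4:**
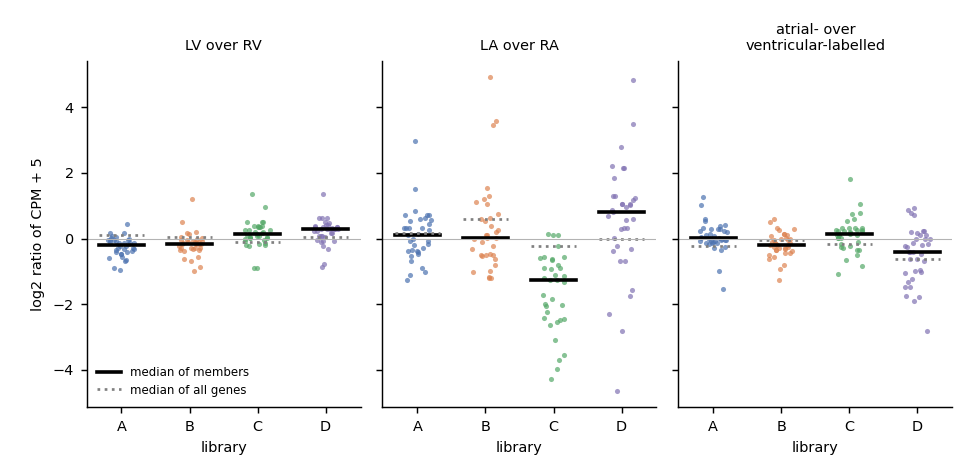
Log2 ratio of CPM + 5 of each measured member within libraries A to D, for LV over RV, LA over RA, and atrial- over ventricular-labelled cells; solid bars are medians of the members and dotted bars medians of all genes. The members spread widely in LA over RA, where library C has a median of −1.27 and library D one of 0.81.

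The comparison of fixed with live cells asks what ethanol fixation does to the measured RNA. With the nuclear-encoded total, the members stood at nearly the same level in both, while most genes stood lower in fixed cells. This depends on the total. The median log2 ratio of the 36 measured members was 0.03 (median interval limits −0.15 to 0.26), against −0.31 over 7860 genes, and 29 of the 36 lay above that median. Of the members, 2 were at least 1.5-fold higher in fixed cells (7.54% of all genes) and 4 at least 1.5-fold lower (33.8% of all genes), where 41.3% of all genes were past the fold in either direction. The members' median was 0.26 with the total of all gene UMIs, 0.51 with TMM and 0.58 with median-of-ratios totals, and −0.13 with each cell weighted equally. With the total used, the median of all genes moved between −0.43 and 0.15, above 0 for TMM (0.09) and median of ratios (0.15), and the split of higher to lower members between 1 against 5 and 18 against 1. The members' median lay 0.35 above that of all genes on the log2 scale, and between 0.16 and 0.59 above it in the other settings. The median fixed cell had 13.8% of its UMIs from mitochondrial DNA and the median live cell 26.1%, and 5 cells held 33.4% of the fixed and 49.7% of the live pool. Their part in the result was not tested.

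Dlst (chr12:85110833-85134845, + strand) had 187 CPM in fixed cells and 102 CPM in live cells, a ratio of 1.82 (1.51 to 2.21), and was at least 1.5-fold higher in all 15 other settings. The median fixed cell had 175 CPM and the median live cell 58.9 CPM, with 2 of 35 fixed and 8 of 31 live cells at 0. Its partner Ogdh had 647 CPM in fixed cells, against 596 CPM in live cells (1.09, 0.999 to 1.18), so that Dlst per UMI of Ogdh was 0.289 in fixed (0.260 to 0.321) and 0.172 in live cells (0.144 to 0.204). Pcx had 48 UMIs in fixed and 17 in live cells, a ratio of 1.73 (0.976 to 3.21) whose interval included 1, and passed the fold in 9 of 14 other settings.

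The lower members were Suclg2, Pdhb, Mccc2 and Pdp1. Suclg2 (chr6:95473009-95718800, − strand) had 42.5 CPM in fixed cells, against 80.2 CPM in live cells (ratio 0.530, 0.403 to 0.695). The ADP-forming alternative Sucla2 lay on the other side, at 186 and 153 CPM (1.22, 1.04 to 1.44), as did the shared subunit Suclg1, at 190 and 142 CPM (1.33, 1.13 to 1.58). Sucla2 per UMI of Suclg2 was 4.39 in fixed cells (3.54 to 5.49) and 1.91 in live cells (1.52 to 2.40). Pdhb (chr14:8165996-8173025, − strand) had 150 CPM in fixed cells, against 237 CPM in live cells (0.633, 0.545 to 0.735), beside Pdha1 at 234 and 247 CPM (0.950, 0.831 to 1.09) and Dlat at 124 and 93.7 CPM (1.33, 1.08 to 1.63). The median fixed cell had 108 CPM of Pdhb and the median live cell 202 CPM.

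Mccc2 had 25.6 CPM in fixed cells, against 43.1 CPM in live cells (0.593, 0.411 to 0.854), with 32.8% of its live UMIs in 1 cell. Pdp1 had 10 UMIs in fixed and 22 in live cells, with 70.0% of the fixed ones in 1 cell. Suclg2, Pdhb, Mccc2 and Pdp1 stayed below 0 in every other setting in which they were measured, and passed the fold in 13 of 15, 10 of 15, 8 of 15 and 11 of 13 of them. Within the fold, Idh2 (1.30, 1.21 to 1.40), Got1 (1.40, 1.23 to 1.59), Ivd (1.40, 1.14 to 1.72) and Fh1 (1.27, 1.06 to 1.52) had intervals above 1. The ratios of Mdh1, Cs, Idh3b, Mpc1 and Oxct1 were 1.01, 1.03, 1.02, 0.997 and 1.03, with intervals that included 1.

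By role, the summed level in fixed over that in live cells was 1.17 for the citrate cycle (1.13 to 1.21), 1.07 for malate-aspartate (1.01 to 1.15) and 1.07 for the carrier (0.972 to 1.18). It was 0.985 for ketone genes (0.917 to 1.06), 0.977 for branched-chain genes (0.876 to 1.09), 0.899 for the pyruvate dehydrogenase complex (0.831 to 0.972) and 0.844 for its regulators (0.730 to 0.977). Within the pyruvate dehydrogenase complex the sum hid unlike members, with Pdhb lower and Dlat above 1.

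**Figure D5:**
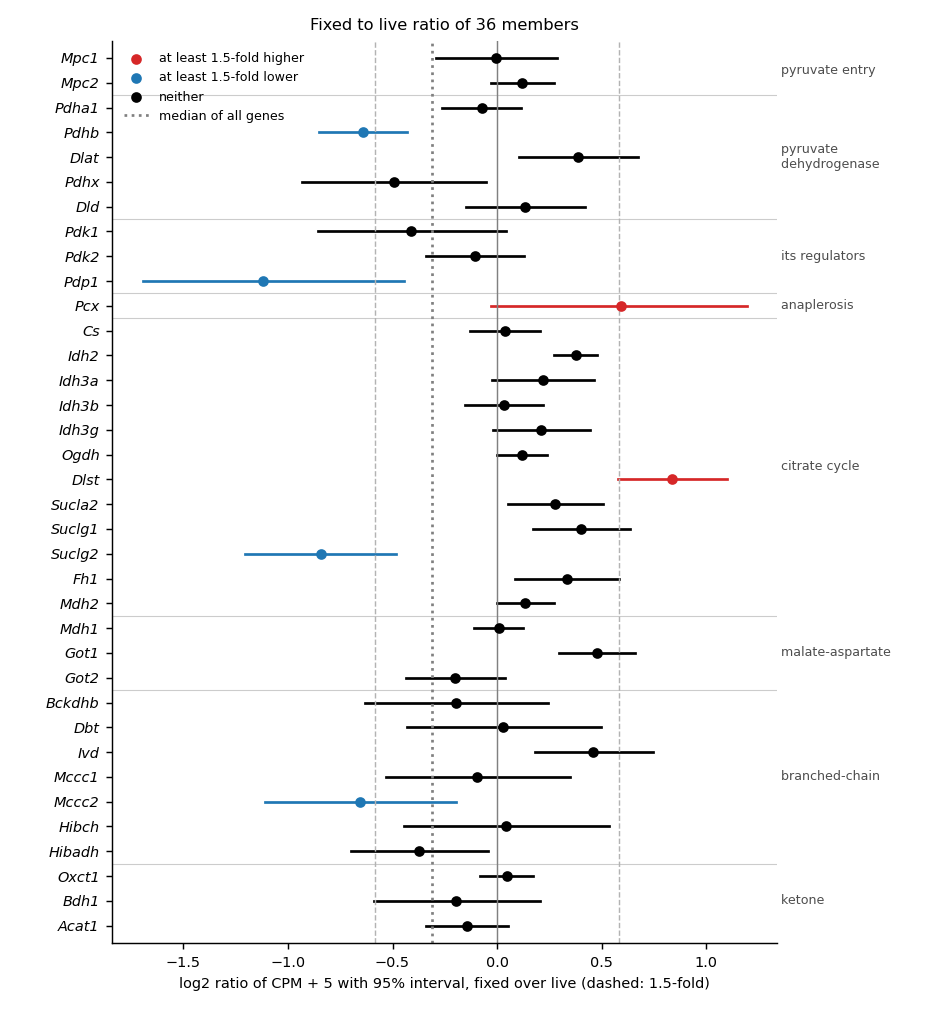
Log2 ratio of CPM + 5 of fixed over live cells for the 36 measured members, with exact 95% intervals of counting error. Most members lie between 1.5-fold lower and 1.5-fold higher and to the right of the median of all genes, −0.31; Dlst and Pcx are higher, and Pdhb, Pdp1, Suclg2 and Mccc2 lower.

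Other genes of these pathways, 51 in 5 lists, were also compared between LV and RV. None of those measured was at least 1.5-fold higher in LV, beside 11.4% of all genes, while 7.18% of all genes were lower. Median log2 ratios were −0.09 for the other pyruvate genes and −0.03 for both the cycle and shuttle genes and the branched-chain genes. They were −0.20 for the lipoic acid genes and −0.41 for the ketone genes. None of the 9 measured of 10 other pyruvate genes and none of the 14 other cycle and shuttle genes passed the fold. Ldhb, the heart form of lactate dehydrogenase, had 1517 CPM in LV and 1622 CPM in RV, and Ldha 547 and 518 CPM. The kinase gene Pdk4 had 1196 CPM in LV and 1297 CPM in RV, well above the members Pdk2 and Pdk1. Sdhb, Sdha and Sdhc of succinate dehydrogenase had 1160, 616 and 493 CPM in LV, against 1171, 650.5 and 467 CPM in RV. Of 16 other branched-chain genes, 1 was lower in LV: Bcat1, the cytosolic branched-chain aminotransferase, on 7 UMIs in LV and 60 in RV, with library log2 ratios of 0.91, 0.00, −2.50 and −1.89. Of the 5 measured of 6 other ketone genes, 2 were lower in LV. They include Aacs, which activates acetoacetate in the cytosol, on 6 UMIs in LV and 27 in RV, below 0 in all 4 libraries. Of the 4 measured of 5 lipoic acid genes, Lipt2 was lower, on 7 UMIs in LV and 23 in RV.

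Between fixed and live cells, 2 of these other genes were higher and 4 lower in fixed cells, of 43 measured, beside 7.54% and 33.8% of all genes. Acad8, of valine breakdown, had 35.1 CPM in fixed cells, against 15.5 CPM in live cells (2.26, 1.41 to 3.76), and the phosphatase gene Pdp2 20.6 and 11.5 CPM (1.80, 1.02 to 3.33). Pcca, of propionyl-CoA carboxylase, had 54.0 CPM in fixed cells, against 104 CPM in live cells (0.521, 0.409 to 0.662), and the aspartate-glutamate carrier gene Slc25a12 66.8 and 122 CPM (0.548, 0.440 to 0.681). Pdpr, the regulatory subunit of the phosphatase, and Acss2, an acetyl-CoA synthetase, were the other lower genes (0.525, 0.349 to 0.785, and 0.402, 0.220 to 0.718).

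Between LA and RA, 7 of the other genes were higher and 4 lower in LA, of 38 measured, beside 28.5% and 15.5% of all genes. Here too library C held most UMIs of the RA pool. Ppm1k, the phosphatase of the branched-chain complex, had 83.5 CPM in LA and 38.3 CPM in RA (2.18, 1.29 to 3.87), with library log2 ratios of 1.64, 1.25, 0.22 and −0.38. Its kinase gene Bckdk had 123 and 78.7 CPM (1.57, 1.07 to 2.33), with 2.04, 2.29, −0.03 and 0.72 by library. Glutamate dehydrogenase (Glud1) had 44.98 CPM in LA and 97.9 CPM in RA (0.460, 0.295 to 0.714), with library log2 ratios of 0.27, −0.60, −0.43 and −0.74, and Pcca 39.6 and 89.3 CPM (0.444, 0.277 to 0.707), below 0 in all 4 libraries. Between atrial-labelled and ventricular-labelled cells, 3 of 49 were higher and 3 lower, beside 12.6% and 15.1% of all genes. The lactate and pyruvate transporter gene Slc16a1 had 186 CPM in atrial-labelled and 118 CPM in ventricular-labelled cells (1.57, 1.36 to 1.82), with library log2 ratios of −0.06, 0.60, 1.20 and 1.08.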

How the data were processed

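Single sorted mouse cardiomyocytes were profiled by SCRB-seq in 2 studies. The authors deposited UMI counts and read counts per gene and cell barcode, not normalized, and per-cell tables with the chamber or fixation label, the library, totals and percent values, such as the percent of spike-in UMIs, which the authors computed and which were not used here. STAR 2.5.4b, featureCounts and GRCm38 are named without order, per the submitters' processing notes. How UMIs were collapsed, with which strand setting and annotation release, is not given in the sources used here. Per the labels, barcodes had 6 and UMIs 10 bases, with 17 PCR cycles.

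GENCODE M21 gave symbols and coordinates and matched 24489 gene IDs of the multichamber and 22648 of the live and fixed study. The 45 barcode columns with no cell label were left out. No doublet caller was run. UMIs of cells with 1000 or more gene UMIs and 500 or more genes were summed per label. Log2 ratios used nuclear-encoded totals and 5 CPM as pseudocount, so changes of low genes are understated. Ratios not given as log2 had no pseudocount. Intervals are exact Clopper-Pearson intervals of 95%. No p-value is given, since cells are not replicates. A count of 0 is read as allowing up to 3 counts of the pool.

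All members are named. Of the 5 other lists, genes at least 1.5-fold apart with at least 30 UMIs and the 4 most abundant could be named, and 1 item is not reported here. The members, lists and tests were chosen with earlier results of these data known. Alternatives were other totals (all genes, without pseudogenes, TMM from edgeR 4.0.16, median of ratios), each cell given the same weight, read counts, pseudocounts, cell and gene minimums, cells with little RNA of other types, the top cell left out, and each library left out. Ratios and intervals were tested on simulated data. Scripts ran in R 4.3.3 and Python 3.11.15 with scipy 1.17.1 and pandas 2.3.3, and figures were drawn with matplotlib 3.10.9.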

Additional observations from a re-analysis of the deposited data

How the results depend on the processing

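No paired analysis was possible because the labels give each study as 1 sample with no shared replicate number, no animal is named, and no result comes from a test. Each of libraries A to D holds cells of all 4 chambers, and the ratios within them are given as descriptions. Under the alternatives, 2204 values of single members stayed within their counting interval and 358 moved further. Of medians and counts, 106 stayed within their limits and 38 moved further. The limits were 1.5 times for counts and the median interval limits of the members for medians. The latter describe single members and are not an interval of the median. For LV against RV, medians of −0.055 to 0.10 with a library left out lay within them. Among values of members past the fold 10 turned in direction, all between LA and RA and in 6 of its 8 members. Of members within the fold, 23 of 30 between fixed and live cells, 23 of 35 between LV and RV, 23 of 27 between LA and RA and 26 of 37 between atrial and ventricular labels changed sign in at least 1 setting. For fixed against live cells the median of 0.03 was 0.26 with the total of all gene UMIs, 0.51 with TMM, 0.58 with median-of-ratios totals and 0.38 with read counts, and the count of 6 members past the fold was 16 with TMM, 19 with median of ratios, 10 with equal weight per cell, 11 with read counts, and 3 with a pseudocount of 20 CPM or with cells of at least 20000 UMIs. For LV against RV the count of 1 was 2 without pseudogenes in the total, with TMM, with median of ratios or with a pseudocount of 1 CPM, 5 with read counts, 3 with cells of at most 2% other RNA, and 1 to 3 with a library left out. For LA against RA the median of −0.34 was −0.022 with equal weight per cell and −0.51 to 0.065 with a library left out. Its count of 8 was 15 with read counts, 5 with a pseudocount of 20 CPM or a gene minimum of 100 UMIs, 13 with cells of at most 2% other RNA, 4 without the top cell, and 4 to 13 with a library left out. For atrial against ventricular labels the median of −0.02 was −0.19 with equal weight, and the count of 0 was 1 with all gene UMIs or with cells of at most 2% other RNA, 5 with equal weight or read counts, 2 with a pseudocount of 1 CPM, and 1 to 3 with a library left out. Between LA and RA equal weight turned Pdhx (0.22), Pdk1 (0.31) and Fh1 (0.11), and Mccc2 turned with read counts (0.84) and without the top cell (0.33). With a library left out the ranges were −0.79 to 0.014 for Pdhx, −0.98 to 0.11 for Dld, −0.996 to 0.23 for Pdk1, −1.46 to 0.067 for Sucla2 and −0.79 to 0.12 for Mccc2, positive only without library C. The cause of these changes was not tested beyond the alternatives. Depth limits Bckdha, Pdp1 and Pcx most, and in RA a count of 0 allows up to 6.38 CPM.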

Other observations

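Among cells with at least 20000 UMIs, the summed level of the citrate cycle genes went with that of the malate-aspartate genes with a Spearman's rho of 0.25 over 76 LV cells (0.52, 0.39, −0.02 and −0.06 in libraries A to D) and 0.64 over 80 RV cells (0.70, 0.18, 0.73 and 0.77). It was 0.78 over 34 fixed and 0.48 over 23 live cells. With the pyruvate dehydrogenase genes the citrate cycle had a rho of 0.40 in LV (0.31 to 0.50 by library) and 0.13 in RV (−0.17 to 0.47), and with the ketone genes 0.37 in LV and 0.26 in RV. All sums share the total of the cell, and the values are descriptions with no test.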
